A study of Mus musculus with 6 samples.

Results

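To ask how the transcription factors that keep cells epithelial differ after selection by chemotherapy, 10 such genes were followed on expression arrays of 4T1 cells and of a methotrexate-selected line derived from them. They were Grhl1, Grhl2, Grhl3, Ovol1, Ovol2, Elf3, Elf5, Ehf, Klf5 and Trp63. They were taken by symbol, 1 probe set per gene (the one with the highest mean over all arrays), and all 10 were measured among 19933 genes in all. 4T1 is a mammary carcinoma line of BALB/c mice. The 3 WTR- arrays held RNA of untreated 4T1 cells, and the 3 MR13 arrays held RNA of the MR13 line, grown from 4T1 cells that survived methotrexate, an antifolate that blocks nucleotide synthesis. The labels give 13 µg/ml of drug for at most 2 weeks, whereas the study's text gives a different concentration and a longer exposure, and survivors were returned to medium without drug. MR13 is 1 selected line, and the arrays came from triplicate wells of each line, so p values measure the spread between wells and not between selections. Arrays of 1 group correlated at 0.998 to 0.999 and arrays of different groups at 0.984 to 0.987, and no array stood apart or copied another.

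These genes act at several levels of the epithelial programme. The Grainyhead-like factors GRHL1, GRHL2 and GRHL3 bind enhancers and promoters of junction and barrier genes and switch them on. OVOL1 and OVOL2 are zinc finger repressors known for holding down genes of epithelial-mesenchymal transition (EMT), among them Zeb1. ELF3, ELF5 and EHF are ETS factors of epithelia, and ELF5 drives the milk-producing alveolar fate of the mammary gland. KLF5 is a Krüppel-like factor of proliferating epithelial cells, and Trp63 encodes p63, the factor of basal and myoepithelial cells. ZEB and SNAIL proteins, which oppose this programme, bind E-box motifs in the promoters of epithelial genes.

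Of the 10 factors, 5 were lower in MR13, 1 was higher and 4 did not pass (limma, adjusted p under 0.05 over all genes). Over all genes, 37.6% were called, 20.6% lower and 17.0% higher. Grhl2 fell the most, 2.48-fold, followed by Ovol1 (1.96-fold), Ovol2 (1.43-fold), Klf5 (1.28-fold) and Elf3 (1.21-fold), and Trp63 rose 1.50-fold. Grhl1, Grhl3, Elf5 and Ehf did not pass. In bulk RNA, fewer cells of a kind and less RNA per cell cannot be told apart. Grhl2 alone among the 10 changed at least 2-fold, a size reached by 4.06% of all genes. The median log2 difference of the 10 was -0.15, against 0.01 over all genes. Because the genes were chosen with earlier results of these data known, these shares describe the set and nothing is read from them about it.

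**Figure D1:**
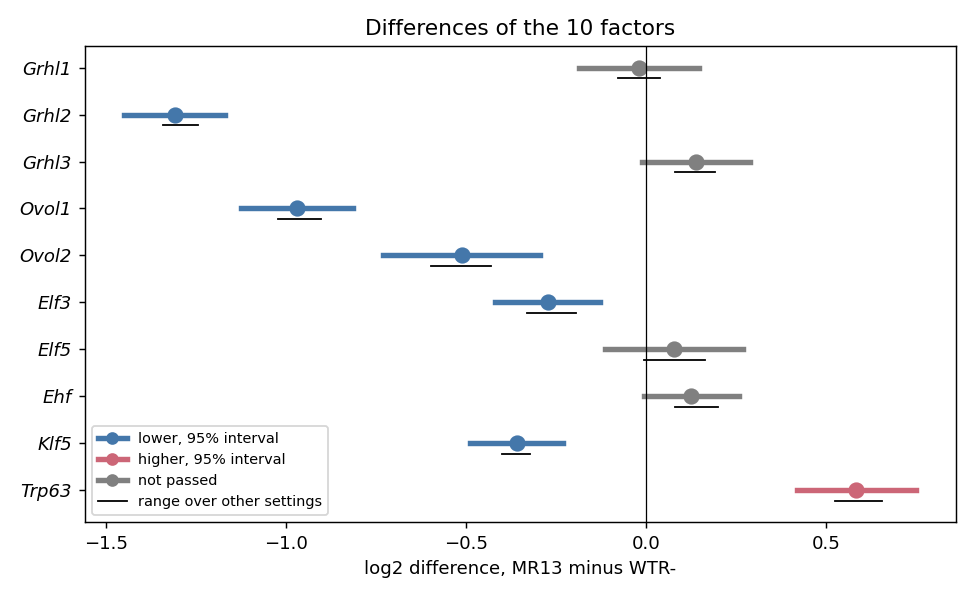
Log2 difference between MR13 and WTR- (x axis) of each of the 10 factors (y axis). Points are differences, thick bars are 95% confidence intervals from limma, coloured by call, and thin black lines span the values under the other settings tried. Grhl2 lies farthest left at -1.31 and Trp63 farthest right at 0.59, and the intervals of Grhl1, Grhl3, Elf5 and Ehf include 0.

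Promoter sequence was at hand for 5 of the 10 genes (7 transcript starts, RefSeq, build GRCm38.p6). The 250 bases before a start are shown for Elf3, Elf5 (first start), Grhl3 and Ovol2. In these stretches Elf3, Elf5 and Grhl3 hold the E-box, a motif that ZEB and SNAIL proteins can bind, and Ovol2 holds none. Capitals mark the E-box CAGGTG, read on both strands. The Elf3 stretch is chr1:135258473-135258722 (- strand), that of Elf5 chr2:103411848-103412097 (+ strand), that of Grhl3 chr4:135573633-135573882 (- strand) and that of Ovol2 chr2:144331363-144331612 (- strand).
Elf3: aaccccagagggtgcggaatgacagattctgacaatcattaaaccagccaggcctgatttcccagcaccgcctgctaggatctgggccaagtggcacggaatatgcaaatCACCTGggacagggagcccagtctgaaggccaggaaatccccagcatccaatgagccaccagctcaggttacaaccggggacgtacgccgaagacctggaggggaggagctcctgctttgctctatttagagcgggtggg
Elf5: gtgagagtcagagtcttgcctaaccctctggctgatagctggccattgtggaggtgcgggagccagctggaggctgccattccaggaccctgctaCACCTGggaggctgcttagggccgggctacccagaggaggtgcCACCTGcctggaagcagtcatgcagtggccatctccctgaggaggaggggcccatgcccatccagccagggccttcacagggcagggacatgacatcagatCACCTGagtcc
Grhl3: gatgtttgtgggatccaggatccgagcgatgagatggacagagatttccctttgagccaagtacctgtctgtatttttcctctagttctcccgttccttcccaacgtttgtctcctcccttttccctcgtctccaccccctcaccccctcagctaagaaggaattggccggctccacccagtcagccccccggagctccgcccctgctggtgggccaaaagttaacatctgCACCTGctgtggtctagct
Ovol2: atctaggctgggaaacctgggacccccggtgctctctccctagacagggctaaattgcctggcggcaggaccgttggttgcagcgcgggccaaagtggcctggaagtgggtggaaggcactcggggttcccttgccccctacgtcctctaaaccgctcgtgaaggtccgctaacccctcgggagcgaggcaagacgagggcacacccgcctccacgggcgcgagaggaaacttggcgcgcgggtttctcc

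In windows of 300 bases, which add 50 bases after the start, the E-box was found at 4 of the 7 starts. It was found in 20.2% of the 32851 promoter windows of the table. By gene it was found for 3 of the 5, of which Elf5 and Grhl1 had more than 1 start. Shares per gene over the whole table were not computed for any motif. Elf3 held 1 E-box, at 140 bases before the start. Elf5 held 3 at its first start, at 155, 112 and 11 bases before it, and 1 after its second start. Grhl3 held 1 at 19 bases before the start and 1 after it. The window of Ovol2 and both windows of Grhl1 held none. Elf3 and Ovol2 fell, and Elf5, Grhl3 and Grhl1 did not pass. Any link between E-boxes and these differences was not tested, and no window was at hand for Grhl2, Ovol1 or Klf5, which fell. The KLF box CACCC occurred at 5 of the 7 starts (57.5% of all windows), and for each of the 5 genes. The GRHL core ACCNGTT, the OVOL core CCGTTA and the ETS core CCGGAA, also read on both strands, occurred at 0 of the 7 starts (8.13%, 2.76% and 14.9% of all windows). A match is a run of letters and not a measured site, and these windows leave out enhancers.

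**Figure D2:**
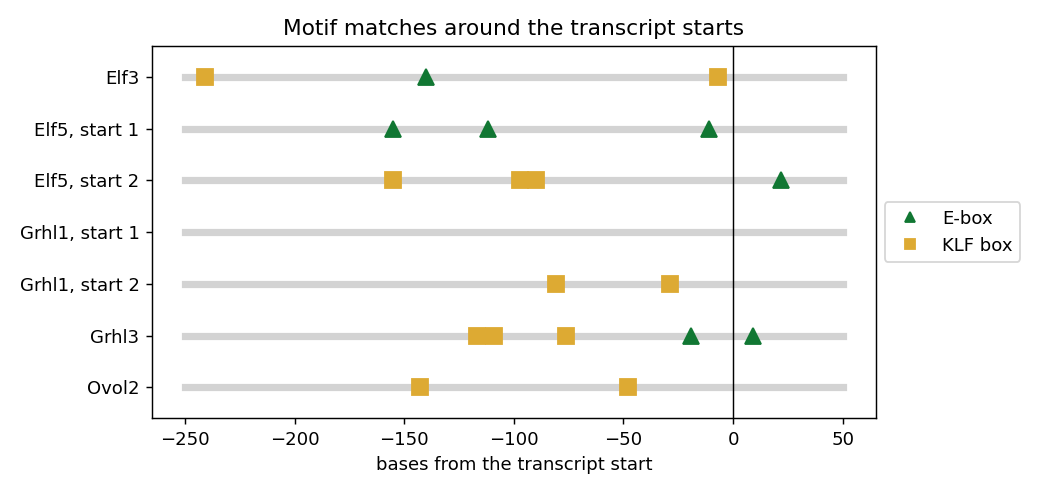
Matches of the E-box (triangles) and of the KLF box (squares) in windows around 7 transcript starts of 5 genes (y axis), drawn at the first base of each match by distance from the start in bases (x axis); grey bars are the 300-base windows. The 3 E-boxes before the first Elf5 start and the empty first window of Grhl1 stand apart.

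Within the Grainyhead-like family the fall was that of Grhl2, the member best known for sustaining Cdh1, Cldn4 and Rab25. Its log2 values were 8.83, 8.73 and 8.83 on the WTR- arrays and 7.39, 7.53 and 7.54 on the MR13 arrays. Every MR13 array lay over 1 log2 unit below every WTR- array, and the difference was -1.31 (SE 0.06, 95% CI -1.45 to -1.17, adjusted p = 5.62e-07). Grhl3, a factor of the skin barrier and of wound closure, had values of 6.37, 6.33 and 6.39 in WTR- and 6.40, 6.62 and 6.49 in MR13. The groups did not overlap, by a narrow margin, as for 47.4% of all genes, and the difference did not pass (0.14, 95% CI -0.01 to 0.29, adjusted p = 0.14). Grhl1, which controls desmosomal cadherins in skin, had values of 5.90, 5.89 and 5.75 in WTR- and 5.95, 5.72 and 5.82 in MR13. Its groups were interleaved (-0.02, 95% CI -0.18 to 0.15, adjusted p = 0.88), and the sign turned when some arrays were left out. Of the 3 more distant relatives measured, Tfcp2 rose by 0.41 and Tfcp2l1 fell by 0.48, while Ubp1 was at -0.15 (adjusted p = 0.057) and was called lower without the dimmest 30% of genes, with a trended prior and by the methods' t-test.

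Both OVOL repressors fell. Ovol1 had values of 6.75, 6.68 and 6.72 in WTR- and of 5.62, 5.85 and 5.77 in MR13, so that the groups were far apart (-0.97, SE 0.07, 95% CI -1.13 to -0.81, adjusted p = 6.60e-06). Ovol2 had values of 7.23, 6.99 and 6.99 in WTR- and of 6.73, 6.52 and 6.42 in MR13. Here too each MR13 array was below each WTR- array, with a wider spread inside both groups (SD 0.14 and 0.16), and the difference was -0.51 (SE 0.10, adjusted p = 0.0024). The file holds the same value for Ovol2 on WTR- replicates 2 and 3, as it does for a pair of arrays of 1 group in 8% of probe sets. The third family member, Ovol3, was at 0.07 (adjusted p = 0.56).

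**Figure D3:**
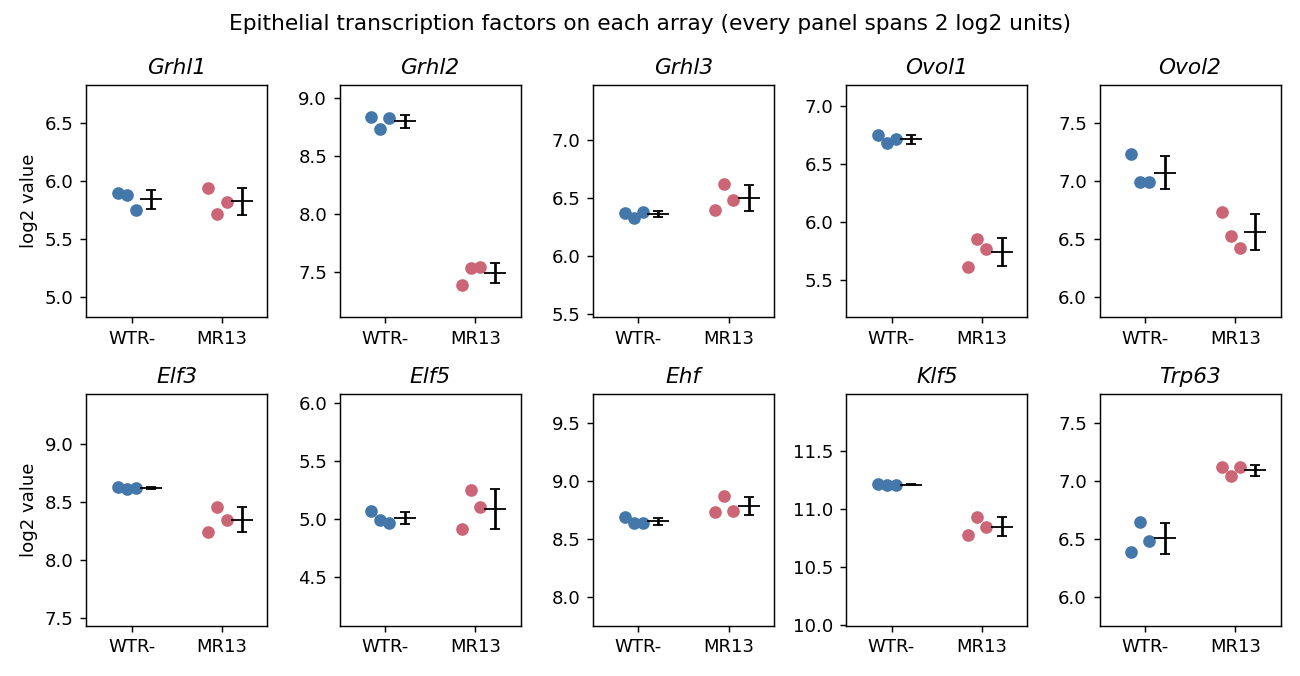
Log2 values (y axis) of the 10 factors on the 3 WTR- arrays (blue) and the 3 MR13 arrays (red), 1 panel per gene; points are arrays, and black marks are means with SD. Every panel spans 2 log2 units, and the groups are apart for all 10 factors except Grhl1 and Elf5, although the gap is small for Grhl3 and Ehf. Over all genes measured, the groups are apart for 47.4%.

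The 3 epithelial ETS factors did not move as 1 group. Elf3, which is induced in epithelia by inflammatory signals, had values of 8.63, 8.61 and 8.62 in WTR- and of 8.24, 8.46 and 8.35 in MR13. The MR13 arrays were all lower, though spread more widely than the WTR- arrays, and the fall of 0.27 passed (SE 0.06, 95% CI -0.42 to -0.13, adjusted p = 0.0084). Ehf had values of 8.69, 8.63 and 8.64 in WTR- and of 8.73, 8.87 and 8.74 in MR13. Its MR13 arrays were all slightly higher, and the difference of 0.13 (95% CI -0.00 to 0.26) did not pass (adjusted p = 0.12). When the arrays were quantile normalized again, Ehf was at 0.20 and was called higher (adjusted p = 0.014), and over all settings its adjusted p ran from 0.014 to 0.32. Elf5 was dim, among the lowest 30% of genes in both groups, with values of 5.07, 4.997 and 4.97 in WTR- and of 4.91, 5.25 and 5.10 in MR13. The MR13 values straddled those of WTR- (0.08, 95% CI -0.11 to 0.27, adjusted p = 0.53), and the value table held no detection calls, so whether Elf5 was above background is unknown. Of 22 other ETS genes measured, 1 was lower and 4 were higher, or 7 higher without MR13 replicate 1 (median 0.03). On all arrays 22.7% of them were called, against 37.6% over all genes. Etv1 rose by 0.98, Etv6 by 0.41 and Elk4 by 0.31, and Elk3 fell by 0.28. Etv4 rose by 0.22 and was named after its value was seen.

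Klf5 was steady within WTR- and lower in MR13. Its values were 11.21, 11.20 and 11.21 in WTR- and 10.78, 10.93 and 10.84 in MR13, a difference of -0.36 (SE 0.06, 95% CI -0.49 to -0.23, adjusted p = 0.00085) with no overlap. Other Krüppel-like factors went both ways, with 5 of 16 lower and 6 higher and a median of 0.00 (68.8% called, against 37.6% over all genes). Klf10, induced by TGF-β, rose by 1.03 and Klf9 by 0.68, whereas Klf12 fell by 1.16 and Klf6 by 0.59.

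Trp63 was the one factor of the 10 that rose. Its values were 6.39, 6.65 and 6.48 in WTR- and 7.12, 7.04 and 7.12 in MR13. All MR13 arrays lay above all WTR- arrays, and the difference was 0.59 (SE 0.07, 95% CI 0.42 to 0.75, adjusted p = 0.00021). A transcript-level probe set does not tell the full-length TA forms of p63, which carry the transactivation domain, from the ΔN forms of basal cells. Trp73, its relative, was at 0.04 (adjusted p = 0.58).

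Whether members of 1 family changed unequally was tested on the difference between a pair of genes on each array, over 7 pairs, by a two-sided exact permutation test. With 3 arrays against 3 the smallest p it allows is 0.10, which is 0.14 after adjustment over the 7 pairs, so no pair could pass. Levels of different probe sets are not comparable, so only the change of such a difference between the groups is given. Whether different probe sets respond equally to a change in RNA was not tested, least of all at low signal. The changes below therefore describe array signal and not amounts of RNA. Signal was low for Elf5 (means of 5.01 in WTR- and 5.09 in MR13) and Grhl1 (5.85 and 5.83). For Ovol1 the MR13 mean was 5.75. Grhl2 moved against Grhl3 by -1.45 (exact p = 0.10), and Grhl1 moved against Grhl2 by 1.29 (exact p = 0.10). Ovol1 moved against Ovol2 by -0.46, with MR13 arrays from -1.11 to -0.65 and WTR- arrays from -0.48 to -0.27. Elf3 moved against Ehf by -0.40 and against Elf5 by -0.35. In these 5 pairs the groups did not overlap. They overlapped for Grhl1 against Grhl3 (-0.16, exact p = 0.30) and for Elf5 against Ehf (-0.05, exact p = 0.70).

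**Figure D4:**
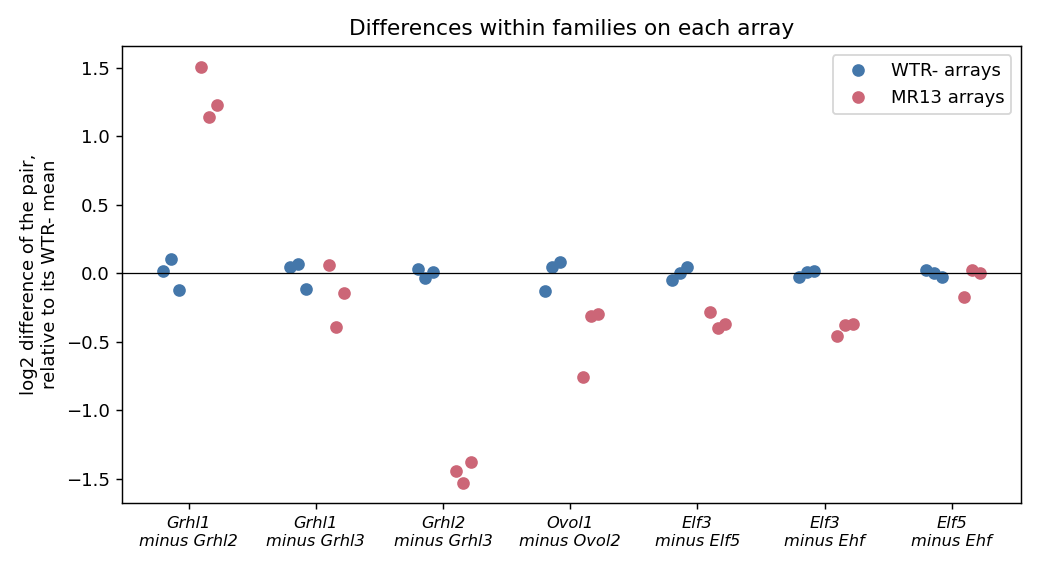
For each of 7 pairs of related genes (x axis), the log2 value of the first minus that of the second on each array, with the pair's WTR- mean set to 0 (y axis, log2 units); points are arrays. The MR13 arrays lie apart from the WTR- arrays in 5 pairs, by -1.45 for Grhl2 against Grhl3, and overlap them in 2.

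Genes that GRHL and OVOL factors are known to sustain or that share their epithelial programme fell nearly throughout. Of 33 measured, 29 were lower and 2 higher (93.9% called, against 37.6% over all genes, median -1.64). A fall of at least 2-fold was seen for 21, against 419 of all 19933 genes. The list was drawn up with earlier results of these data known. These counts therefore describe the list, and nothing more is read from them. Mal2, a transcytosis protein, was at -6.24, the splicing regulator Esrp1 at -5.50, the tight junction protein Cldn4 at -5.27 and the GTPase Rab25 at -5.26, all as log2 differences. The 4 exceptions were picked out once their values were known. They were the protease inhibitor Spint1 (0.36) and the plakin Ppl (0.35), which rose, and Evpl (-0.08) and Arhgef19 (0.07), which did not pass. Ppl had 1 and the same value on all 3 WTR- arrays.

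Genes linked to p63 in basal cells were more often lower than higher, whereas Trp63 rose. Of 19 measured, 11 were lower and 3 higher (73.7% called, against 37.6% over all genes, median -0.49). This list too was drawn up with earlier results of these data known, so its counts only describe it. Nothing is read from them about Trp63, and any link between Trp63 and these genes was not tested. Sfn, the cell cycle inhibitor 14-3-3σ, was at -2.76, the basal keratin Krt14 at -2.47, the desmosomal p63 target Perp at -2.06 and the laminin-332 chain Lamb3 at -1.95. The 3 that rose were also picked out with their values known, and were Fgfr2 (0.34), Krt5 (0.27, with overlapping groups) and Itga6 (0.25).

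Genes of the alveolar programme linked to ELF5 showed no common direction, with 2 of 11 lower, 2 higher and a median of 0.01. With 36.4% called, close to the 37.6% over all genes, nothing is read from these counts about the list. Xdh, which encodes xanthine oxidoreductase, rose by 2.26 and Stat5a, the transducer of prolactin signals, by 0.71. The milk protein gene Csn3 fell by 0.66 and Btn1a1 by 0.47, both to levels among the dimmest 30% of genes, and both were removed by the filter on dim genes.

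The transcription factors that oppose the epithelial programme were split. Of 14 measured, 5 were higher and 4 lower (64.3% called, against 37.6% over all genes, median 0.09). Foxq1 rose by 2.13, Zeb2 by 1.30 and Snai1 by 1.03, whereas Zeb1, the known counterpart of GRHL2 and OVOL2 in a mutual repression, fell by 0.37 (SE 0.06, adjusted p = 0.0014). Snai2 fell by 0.48 and was among the dimmest 30% of genes in both groups.

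Other transcription factors of mammary and surface epithelium were also split, with 6 of 31 lower and 7 higher (median 0.03). With 41.9% called, close to the 37.6% over all genes, these counts too are only descriptive. Cebpb, a regulator of mammary differentiation and of acute-phase genes, rose by 1.25 and Pitx1 by 0.75. Bcl11a fell by 1.07 and the Notch target Hes1 by 0.93. Over the 10 related lists, 151 of 159 genes had a probe set with a single symbol, and the other 8 were not analysed here. Of the 151, 59 were lower and 30 higher, against 20.6% lower and 17.0% higher over all genes. The GRHL and OVOL linked list gave 29 of the lower genes and 2 of the higher ones. These pooled counts only describe the lists.

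**Figure D5:**
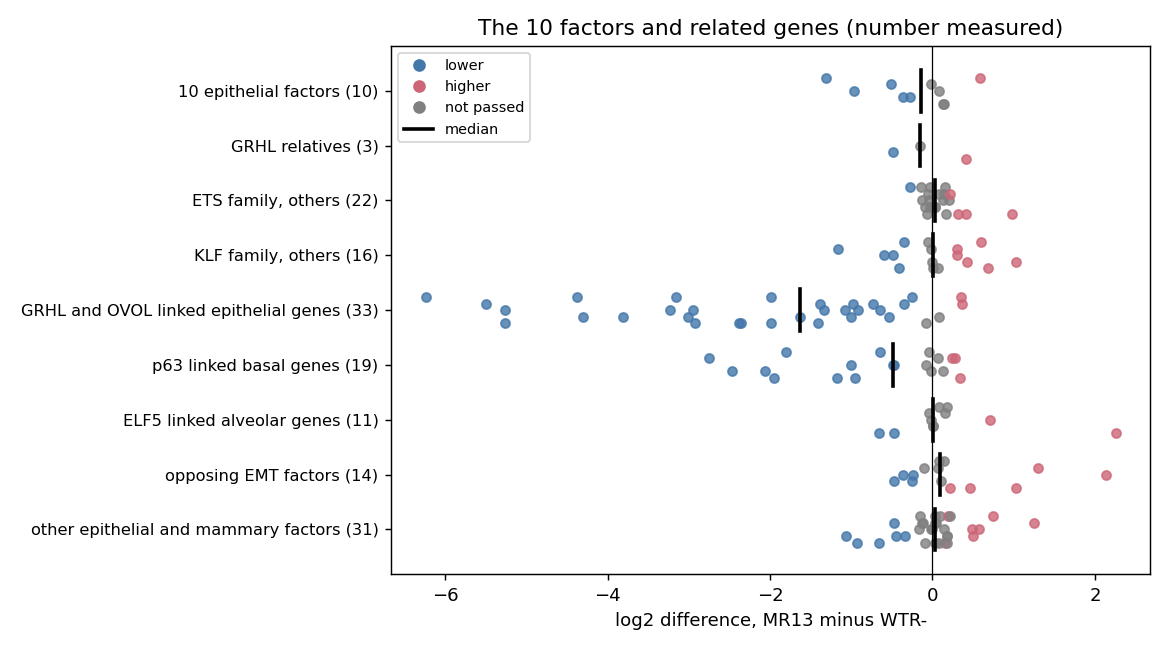
Log2 difference between MR13 and WTR- (x axis) of the 10 factors and of each measured gene of 8 related lists with at least 3 measured genes (y axis, number measured in brackets); points are genes coloured by call, and black bars are medians. The GRHL and OVOL linked genes reach -6.24 with a median of -1.64, while the medians are 0.03 for the other ETS genes, 0.00 for the other Krüppel-like factors and -0.15 for the 3 relatives of the GRHL factors.

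The label of these cells as epithelial held in part for MR13. Krt8 (13.41 in WTR- and 13.53 in MR13) did not pass and Krt18 fell by 0.19, while Krt19 fell by 2.23, Epcam by 4.30 and Cdh1 by 3.24. The mean of these 5 markers ran from 11.8 to 11.9 on WTR- arrays and from 9.81 to 9.95 on MR13 arrays. Of 6 fibroblast markers, Pdgfra rose by 1.82 and Dcn by 1.70, the others did not pass and Lum was dim in both groups (list means of 6.26 to 6.30 and 6.82 to 6.99). Cd68 rose by 0.35 among 6 myeloid markers, of which Ptprc, Itgam, Adgre1 and Lyz2 were dim in both groups (list means of 5.56 to 5.58 and 5.60 to 5.62). None of 4 lymphocyte and 4 endothelial markers passed, and 3 of each were dim in both groups (list means of 4.55 to 4.64 and 4.59 to 4.71, and of 5.05 to 5.21 and 5.16 to 5.22). The part of these differences in the values of the 10 factors was not tested.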

How the data were processed

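Biotin-labelled total RNA of 3 WTR- and 3 MR13 wells was hybridised to Affymetrix arrays. The deposited values were log2 expression, 1 per probe set. Affy and limma are named in the submitters' processing notes, and the background correction and normalization methods are not given in the sources used here. Array medians lay between 6.57 and 6.62. For arrays, their number limits the precision.

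Of 28350 probe sets, the platform annotation gave 21780 a single symbol, 1618 several and 4952 none. Symbols were updated through RefSeq (GRCm38.p6). Each gene took its probe set with the highest mean, which left 19933 genes; each of the 10 factors had 1. The lines were compared in limma (version 3.58.1, R 4.3.3; lmFit and eBayes, no covariate, two-sided), with Benjamini-Hochberg adjustment over all genes. Differences are MR13 minus WTR- on the log2 scale, with SE. Counts of genes in lists are given with no set test. Simulated data of 19933 genes held 50 changed genes at each fold size. Of these, 50.0% were recovered at 1.25-fold, 82.0% at 1.5-fold and 94.0% at 2-fold, and 1.81% of calls were false. Far fewer genes were changed there than the 37.6% called here, so these shares need not hold for this comparison. The genes and lists were chosen with earlier results of these data known. Named genes were all 10 factors and, per list, up to 4 called genes with the largest differences and no overlap, plus Zeb1, Zeb2, Snai1 and Snai2. Protein sequences were not used here. Alternatives were quantile normalization again, median centring, a filter on the dimmest 30% of genes, averaging over probe sets of a gene, a trended and robust prior, the replicate number as a block, the methods' t-test, a 2-fold minimum and leaving out each array.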

Additional observations from a re-analysis of the deposited data

How the results depend on the processing

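Each factor was recomputed under 13 other settings (12 for Elf5, which the filter on dim genes removed). The falls of Grhl2, Ovol1, Ovol2, Elf3 and Klf5 and the rise of Trp63 kept their direction and call in all 13. Grhl2 lay between -1.34 and -1.25, and Trp63 between 0.53 and 0.66. Elf3 lay between -0.33 and -0.19 and Ovol2 between -0.60 and -0.43. Their highest adjusted p, both by the methods' t-test, were 0.042 and 0.044. The filter on dim genes, the trended and robust prior, the replicate block and the t-test left the differences unchanged, so only the call could change there. Averaging over probe sets changed no value of the factors, as each had 1 probe set. Quantile normalization again called Ehf higher (0.20), which gave 2 higher factors. With a 2-fold minimum 1 factor was lower and 0 higher, and the same counts came from treat, limma's test against a minimum of 1 log2 unit. For the related genes these rules left 30 lower and 6 higher (2-fold) and 23 lower and 3 higher (treat). Over all genes they left 419 lower and 391 higher, and 224 lower and 233 higher. Leaving out single arrays turned the sign of Grhl1 (-0.077 to 0.038) and of Elf5 (-0.0036 to 0.17), neither of them called: Grhl1 was at 0.0097 without WTR- replicate 1, at 0.0027 without WTR- replicate 2 and at 0.038 without MR13 replicate 2, and Elf5 at -0.0036 without MR13 replicate 2. Rescaling moved the median of all genes from 0.010 to at most 0.016. Deviations of arrays of the same number correlated at r = 0.13, -0.00 and 0.18 across genes. WTR- replicates 1 and 3 correlated best with the MR13 array of their own number. WTR- replicate 2 did so with MR13 replicate 1, at only 0.02. Whether the numbers pair the arrays cannot be told from these values. With the replicate number as a block, 5 factors were lower and 1 higher as before, and over all genes 4062 were lower and 3380 higher. Low signal limits what can be said of Elf5.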

Other observations

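Ehf and Elf5 are next to each other in RefSeq order among the measured protein-coding genes, and the genes on either side were looked at after the values of both were seen. In the order Cd44, Pdhx, Apip, Ehf, Elf5, Cat, Abtb2 and Nat10, the outermost genes fell, Cd44 by 0.24 (adjusted p = 0.0063) and Nat10 by 0.30 (adjusted p = 0.0080). The 6 between them did not pass, with differences from -0.03 (Cat) to 0.13 (Ehf).

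Wells of both lines differed in level over the 10 factors. WTR- replicate 1 held the highest value of its group for 8 of the 10. WTR- replicate 2 held the lowest for 7, counting Ovol2, for which it tied with replicate 3. Median deviations of these 2 arrays from the group mean were 0.04 and -0.02 on the log2 scale, against 0.02 and -0.01 over all genes. MR13 replicate 1 held the lowest value of its group for 7 and MR13 replicate 2 the highest for 6, with median deviations of -0.09 and 0.09, against -0.02 and 0.02 over all genes. For Grhl1, Ovol2 and Trp63 the highest MR13 value was in replicate 1. Genes on 1 array are not independent, and these counts were not tested.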
